A study of Homo sapiens with 19 samples.

Results

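Active distal enhancers of untreated MOLM-13 cells were described here as 2617 regions of the genome, and their histone marks were followed after treatment with Corin. MOLM-13 is a human acute myeloid leukaemia line that carries a KMT2A fusion and an activating FLT3 duplication, and karyotypes of the line show extra copies of chromosome 8. CUT&RUN, in which an antibody directs a nuclease to cut out the chromatin that carries a mark, was run for H3K27ac, H3K4me2 and H3K4me3. Each mark had 2 libraries of cells given the vehicle DMSO and 2 of cells given Corin at 0.1 µM, in all cases collected after 24 h, which makes 12 libraries. The labels give 0.1 µM for the DMSO cells too, where its meaning is unclear, and nothing says that the 2 libraries of a group came from separate cultures, so the spread between them may be technical. All values come from 1 cell line. The other 7 of the 19 libraries of the series were not analysed here, among them 2 IgG libraries. Whether an IgG control entered the authors' peak calling is not given in the sources used here.

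Enhancers are stretches of DNA away from promoters that bind transcription factors and raise the output of genes that can lie far off. H3K27ac, an acetylation laid down by p300 and CBP and removed by histone deacetylases, marks enhancers and promoters in use. H3K4me2 covers both kinds of element, and the demethylase LSD1 can remove it, whereas H3K4me3 is concentrated at promoters. LSD1 and deacetylases HDAC1 and HDAC2 sit together in the CoREST complex, and Corin is a compound that inhibits both activities. In blood cells LSD1 is known for acting at enhancers of myeloid genes, brought there by repressors such as GFI1.

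Members were chosen from deposited peak lists, so their DMSO peaks are a description and not a finding. The 2 DMSO H3K27ac lists merged into 24722 regions, of which 10613 held a peak of both lists. Of these, 5134 lay more than 1 kb from every annotated transcription start site (TSS) of a protein-coding or long non-coding gene, and 4621 of those overlapped no H3K4me3 peak in any of the 4 H3K4me3 lists. An H3K4me2 peak in both DMSO lists was present at 2617 of them, which are the active distal regions. H3K4me2 was absent from both DMSO lists at 1440 regions that met the other conditions, and it was present in 1 list at 564. The 1440 served as a comparison, as did 4508 active promoters, which lay within 1 kb of a TSS with H3K4me2 and H3K4me3 in both DMSO lists. The condition on H3K4me3 used the Corin lists too, so the members' lack of H3K4me3 under Corin was fixed by the choice. At the edge of the distance rule, a region 1004 bp from the TSS of SPN entered with 1800 and 2195 bp of H3K27ac in its 5 kb in DMSO, and one 974 bp from a WIPF1 TSS, with 1986 and 1107 bp, did not.

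The labelled cell type was checked on the promoters of lineage markers. H3K27ac peaks in both DMSO lists lay at the TSS of 5 of 8 myeloid markers (SPI1, CD33, MPO, FLT3 and CEBPA), and 2 markers of differentiated monocytes, CSF1R and ITGAM, had neither H3K27ac nor H3K4me3 there. None of 6 lymphoid, 6 erythroid or 8 non-blood markers had either mark at a TSS in both DMSO lists. Peak numbers were larger in the Corin lists: 17599 and 19995 H3K27ac peaks in DMSO against 34424 and 30029, and 30896 and 32299 H3K4me2 peaks against 41152 and 40042. H3K4me3 lists held 11104 to 11883 peaks. Read depth is unknown beyond a labelled minimum of 5000000 reads, and the part of depth in what follows was not tested.

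The sequences of 4 members show what kind of DNA the regions hold. Each is the central 300 bp of a member on the plus strand of hg38, 5′ to 3′, in lower case. Capitals mark matches, on either strand, of short motifs of blood transcription factors: PU.1, RUNX, C/EBP, AP-1, IRF, GATA, an E-box and MEIS. Apart from IRF, their letters are spelled out beside their shares. Neighbouring matches can overlap or touch and then form 1 run of capitals. The first line is the member nearest to CEBPA, which encodes the granulocyte-monocyte factor C/EBPα, and the second lies in an intron of RUNX1, which encodes a core factor of blood cell formation. The third is the member with the highest DMSO score ranks, in an intron of a long non-coding gene with CITED2 as its nearest protein-coding gene. The last, an intergenic region nearest to MSMB, was picked after its matches were seen, as a highly ranked member that holds 3 of the PU.1, RUNX, C/EBP and AP-1 motifs.
CEBPA region, chr19:33293488-33293787: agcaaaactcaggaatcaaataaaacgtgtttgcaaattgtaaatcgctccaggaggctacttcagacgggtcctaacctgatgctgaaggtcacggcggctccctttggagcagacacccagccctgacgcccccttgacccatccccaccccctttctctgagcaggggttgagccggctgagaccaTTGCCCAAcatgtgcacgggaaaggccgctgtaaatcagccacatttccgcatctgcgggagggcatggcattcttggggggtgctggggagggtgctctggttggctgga
RUNX1 region, chr21:34906954-34907253: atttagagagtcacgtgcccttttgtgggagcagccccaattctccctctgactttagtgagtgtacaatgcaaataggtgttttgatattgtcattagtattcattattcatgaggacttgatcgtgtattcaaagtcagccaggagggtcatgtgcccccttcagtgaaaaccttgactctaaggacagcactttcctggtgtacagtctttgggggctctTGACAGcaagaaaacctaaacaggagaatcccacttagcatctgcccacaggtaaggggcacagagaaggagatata
CITED2 region, chr6:139626602-139626901: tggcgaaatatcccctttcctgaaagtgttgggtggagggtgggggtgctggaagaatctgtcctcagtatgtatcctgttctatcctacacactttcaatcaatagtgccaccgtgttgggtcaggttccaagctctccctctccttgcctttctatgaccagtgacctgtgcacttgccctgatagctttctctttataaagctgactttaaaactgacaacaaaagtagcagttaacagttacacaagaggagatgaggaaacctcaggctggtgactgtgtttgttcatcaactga
MSMB region, chr10:46079938-46080237: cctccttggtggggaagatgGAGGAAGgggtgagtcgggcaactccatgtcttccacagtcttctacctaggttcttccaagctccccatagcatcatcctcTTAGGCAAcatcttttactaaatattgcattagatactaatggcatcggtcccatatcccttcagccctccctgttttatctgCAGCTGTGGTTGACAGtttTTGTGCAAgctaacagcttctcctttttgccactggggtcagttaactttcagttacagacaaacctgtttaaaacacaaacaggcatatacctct
The CITED2 window held none of these matches, so the highest score ranks went with no exact match in the centre. The CEBPA window held 1 C/EBP match and the RUNX1 window 1 MEIS match. In the MSMB window, 6 matches included 1 PU.1, 1 RUNX and 2 C/EBP, and its E-box, RUNX and MEIS matches form the longest run of capitals. A match is a run of letters and was not measured as a bound site.

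PU.1, the master factor of myeloid cells, had its letters (GAGGAAG) in the central 300 bp of 453 of 2617 active distal regions, a share of 17.3%. The share was 13.7% in distal regions without H3K4me2, 15.1% in active promoters, 8.14% in windows 10 kb either side of the members and 13.6% in 35114 RefSeq promoters of the same length. RUNX letters (TGTGGTT) stood in 8.37% of members, against 5.42%, 2.66%, 5.45% and 4.27% in the same order. C/EBP letters (TTGCNNAA) stood in 18.5% of members, against 15.9% of distal regions without H3K4me2, 6.72% of active promoters, 14.2% of the flanking windows and 10.5% of RefSeq promoters. Members thus held these myeloid motifs more often than the DNA 10 kb away, by the widest ratio for PU.1. The flanking and RefSeq windows were added after the first shares were seen.

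AP-1, the family of FOS and JUN proteins, had its letters (TGANTCA) in 12.7% of members and in 8.08% of the flanking windows. The MYB letters (AACNGNC) stood in 36.1% of members and 26.5% of flanking windows, and the E-box letters (CAGCTG) in 17.5% and 12.6%. Other classes were close to the members for both: MYB letters stood in 35.0% of active promoters and 33.7% of distal regions without H3K4me2, and E-box letters in 17.9% of RefSeq promoters and 16.2% of all merged DMSO H3K27ac regions. IRF letters showed no such excess, with 5.20% of members and 5.18% of flanking windows, and neither did the MEIS letters TGACAG (21.6% and 20.1%) or the GATA letters AGATAAG (4.74% and 4.20%). The SP/KLF letters (GGGCGG), typical of CpG-rich promoters, stood in 8.10% of members against 56.3% of active promoters, and a CTCF core in 1.34% and 4.46%. A retinoid DR5 element, a direct repeat with a spacer, was found in 0 of 2617 windows and in 0 of 5233 flanking windows. The GFI1 letters (AATCACNGC) stood in 19 members (0.726%) and in 0.783% of flanking windows, so neither motif set the members apart. Of PU.1, RUNX, C/EBP and AP-1, 1401 members held none in the window, 964 held 1, 232 held 2, 20 held 3 and 0 held all 4.

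**Figure D1:**
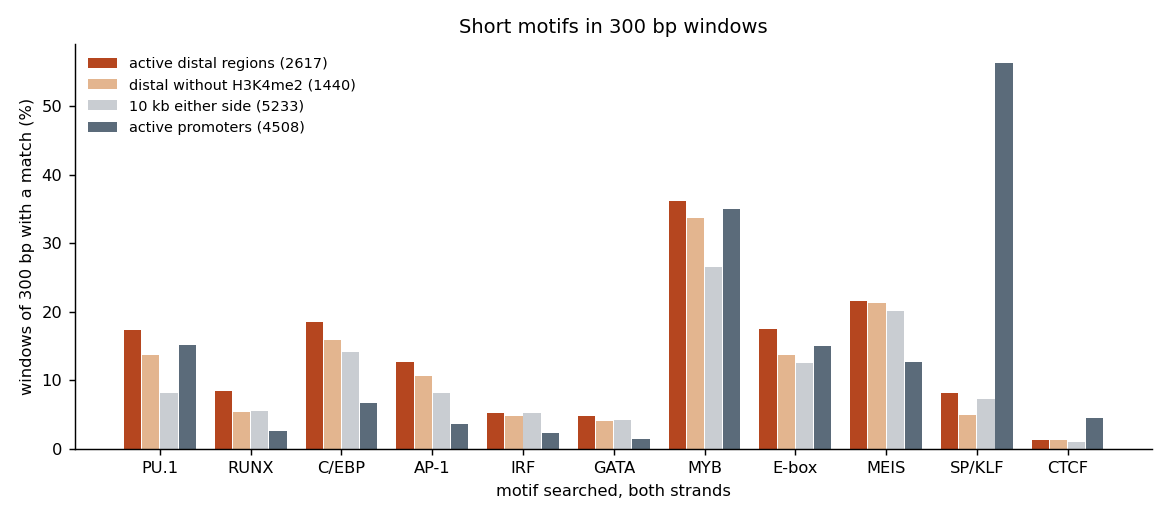
Percent of 300 bp windows with at least 1 match of each motif (bars from 0), on either strand, in active distal regions, distal regions without H3K4me2, windows 10 kb either side of the members and active promoters. PU.1 letters stood in 17.3% of members and 8.14% of flanking windows, while SP/KLF letters stood in 56.3% of active promoters and 8.10% of members.

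Base composition moved with these classes and its part in the motif shares was not tested. GC content was 48.0% ± 7.81 (SD over 2617 windows) in members, 46.8% in distal regions without H3K4me2, 44.8% in the flanking windows and 63.0% in active promoters. A member held a median of 3 CpG dinucleotides in 300 bp and an active promoter 22.

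Most members lay inside genes. By GENCODE release 44, 1578 (60.3%) were intronic, 297 (11.3%) overlapped an exon and 742 (28.4%) were intergenic. The median distance was 12493 bp to any TSS and 21171 bp to a protein-coding TSS, with quartiles of 8211 and 53882 bp. Distal regions without H3K4me2 lay farther away, at a median of 35573 bp from a protein-coding TSS. Members were 238 to 6483 bp wide, with a median of 922 bp, against 632.5 bp in distal regions without H3K4me2 and 1038 bp in active promoters. When members within 12.5 kb of each other were joined, 1562 (59.7%) stood alone, and 447 fell into 123 clusters of 3 or more. The protein-coding genes most often nearest to a member were MBNL1, a splicing regulator, and RREB1, a zinc finger transcription factor, with 14 members each. CITED2, a cofactor of p300 and CBP, had 11, and FOXP1, a forkhead factor, and ZFP36L2, an mRNA decay factor, had 9 each.

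H3K27ac peaks around the active distal regions were broader in both Corin libraries. In the 5 kb around a region's centre, H3K27ac peaks covered a mean of 1354 and 1342 bp per region in the 2 DMSO libraries and 2357 and 1899 bp in the 2 Corin libraries. Both Corin libraries lay above both DMSO libraries, and they differed from each other more than the DMSO libraries did. The choice asked for a peak of both DMSO lists, which can draw the DMSO values together, and asked nothing of the Corin H3K27ac lists. Over the whole lists H3K27ac covered 11.1 and 12.6 Mb in DMSO and 26.1 and 20.1 Mb with Corin. The SDs at members, for both marks, share this limit. The ratio of the group means was 1.58-fold, a log2 ratio of 0.66 ± 0.22 (SD of the difference, n = 2 per group). The exact two-sided permutation p was 0.33, the smallest that the 6 arrangements of 2 against 2 libraries allow, so no comparison of these groups can pass 0.05. Over the whole genome the H3K27ac lists covered 1.96 times as many bp with Corin.

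Outside the DMSO peaks there was room for more H3K27ac, and within them little, since the regions are those merged peaks. Inside the regions themselves the mean covered length was 918 and 901 bp in DMSO and 1056 and 944 bp with Corin, a ratio of 1.10-fold. The regions' mean width of 1146 bp caps that ratio at 1.26-fold. Outside the regions but within the 5 kb, it was 439 and 444 bp in DMSO and 1305 and 958 bp with Corin. By position, 37.2% and 37.1% of regions were under an H3K27ac peak 500 bp from the centre in DMSO, and 66.3% and 54.0% with Corin. At 2000 bp the shares were 12.5% and 12.4% in DMSO against 27.7% and 21.5%, and at 4000 bp 8.05% and 8.42% against 17.9% and 13.8%. The choice of members required a peak of both DMSO lists in the region, which leaves less room for a higher share at the centre: 88.2% and 86.2% in DMSO, 94.8% and 86.3% with Corin.

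**Figure D2:**
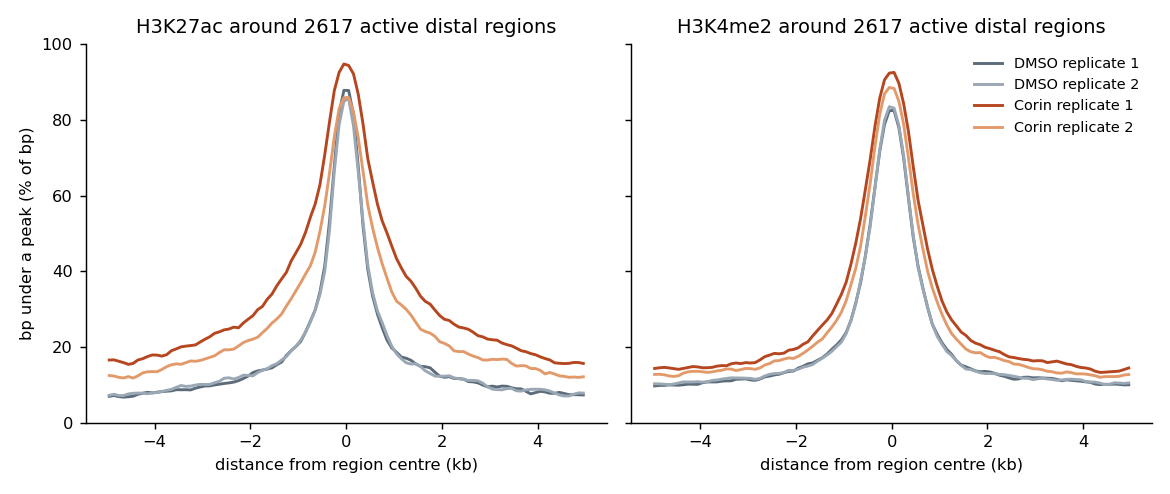
Percent of base pairs under a peak (y axis) by distance in kb from the centre of the 2617 active distal regions (x axis), for H3K27ac and H3K4me2, 1 line per library. The DMSO lines nearly coincide, which the choice of members favours. Both Corin lines lie above them on the flanks, replicate 1 above replicate 2.

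Single H3K27ac peaks of the Corin lists spanned neighbouring members. No H3K27ac peak spanned 2 or more members in either DMSO list, a count that the merging of those same lists fixes at 0. In the Corin lists 134 and 75 peaks did so, and these held 281 and 151 members (10.7% and 5.77%). The median width of H3K27ac peaks over members was 640 and 605 bp in DMSO and 1283 and 885 bp with Corin.

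Per free bp, H3K27ac in both Corin lists was more frequent where H3K4me2 already lay, although most of the added bp lay elsewhere. Of the bp around members that both DMSO H3K27ac lists left free, 30.4% of those under H3K4me2 in both DMSO lists were under H3K27ac in both Corin lists, against 7.51% of those under H3K4me2 in neither. Since 9.73% of the free bp lay under DMSO H3K4me2, these made up 28.4% of the added bp. The same contrast was present in distal regions without H3K4me2 at their centre (33.9% and 7.61%) and in active promoters (9.36% and 1.84%). The difference held at each distance from the centre: at 500 to 1000 bp the shares were 31.8% and 11.7%, and at 2000 to 2500 bp 23.1% and 4.42%. A preference for H3K4me2-marked bp was present between the DMSO libraries too. At 500 to 1000 bp, DMSO replicate 2 covered 27.6% of the H3K4me2-marked bp that replicate 1 left free, and 9.36% of the unmarked bp. Corin replicate 1 covered 58.8% and 27.5% of the free bp in these 2 classes and Corin replicate 2 covered 40.0% and 17.3%. From 500 to 2500 bp the ratio of the marked to the unmarked share was larger between the DMSO libraries than with Corin. At 2000 to 2500 bp DMSO replicate 2 covered 29.1% and 3.06%, Corin replicate 1 46.6% and 11.6%, and Corin replicate 2 30.1% and 7.15%. Without H3K4me2, both Corin values lay above the DMSO background of 9.36% and 8.70%, and with it above 27.6% and 27.9%, and they stayed above it in each bin out to 2500 bp. In the first 500 bp they did not: Corin replicate 2 covered 46.8% with H3K4me2 and 22.6% without it, below the DMSO background of 55.2% and 56.5% with it and 31.8% and 34.3% without it, and Corin replicate 1 covered 66.0% and 38.5%. The DMSO background counts bp free in 1 DMSO list and the Corin shares bp free in both. Near the centre the choice also raises this background, since each region had to hold a peak of both DMSO lists. The first 500 bp therefore cannot show whether Corin covered less than the background. This DMSO background was added after the first shares were seen.

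H3K4me2 was higher around the regions too, by less. Its peaks covered a mean of 1470 and 1468 bp of the 5 kb in DMSO and 1990 and 1797 bp with Corin, a ratio of 1.29-fold and a log2 ratio of 0.37 ± 0.10 (SD of the difference, n = 2 per group, exact permutation p = 0.33). Over the whole genome the H3K4me2 lists covered 1.28 times as many bp with Corin, close to the ratio at the regions. Within the regions the ratio was 1.17-fold, and 500 bp from the centre 46.6% and 46.3% of regions were under an H3K4me2 peak in DMSO against 64.2% and 57.6% with Corin. H3K4me3 peaks, which the rule keeps off the regions, covered 59.0 and 61.6 bp of the 5 kb in DMSO and 76.6 and 66.9 bp with Corin.

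H3K4me2 parted the active distal regions from active promoters. At promoters its peaks covered 2460 and 2624 bp in DMSO and 2759 and 2516 bp with Corin, so the groups overlapped and the log2 ratio was 0.05. The log2 ratio at active distal regions exceeded it by 0.31 ± 0.07 (SD of the difference, exact permutation p = 0.33, the smallest possible), with a difference of 0.27 in replicate 1 and 0.35 in replicate 2. Distal regions without H3K4me2, where the choice sets the DMSO level low, had 261 and 263 bp in DMSO and 591 and 460 bp with Corin, a 2.01-fold ratio that was not tested against the members. For H3K27ac the promoters had 1124 and 1250 bp in DMSO and 1766 and 1514 bp with Corin, and the members' log2 ratio was larger by 0.19 ± 0.13 (exact permutation p = 0.33). That difference was 0.28 without DMSO replicate 1, 0.12 without DMSO replicate 2, 0.14 without Corin replicate 1 and 0.23 without Corin replicate 2. Within the regions alone it was 0.02 (exact permutation p = 1). Distal regions without H3K4me2 had 1133 and 1114 bp of H3K27ac in DMSO and 2032 and 1532 bp with Corin, a 1.59-fold ratio. The members differed from that by −0.01 ± 0.07 on the log2 scale (exact permutation p = 1), a difference below the spread between libraries whose sign changed with the settings.

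**Figure D3:**
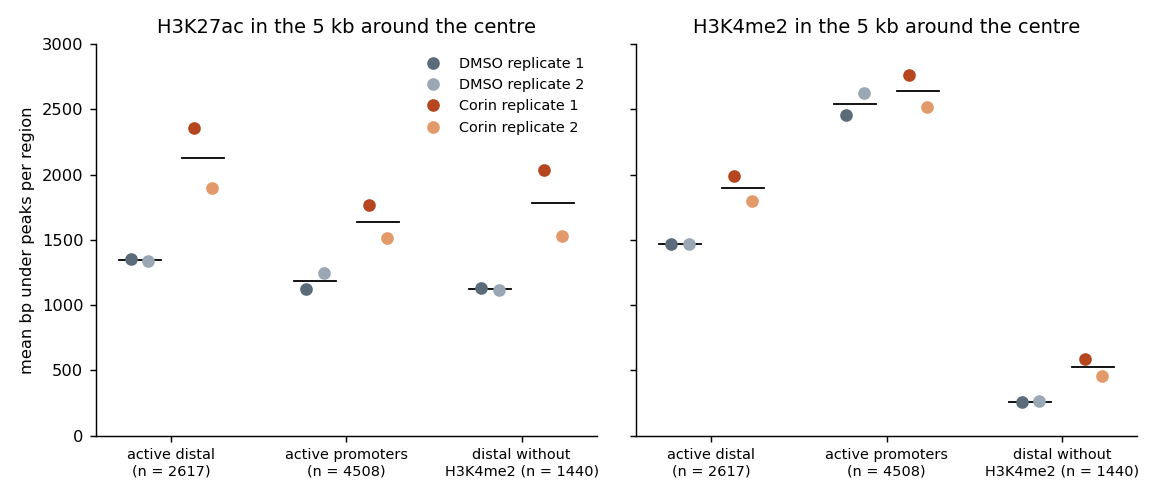
Mean bp under H3K27ac or H3K4me2 peaks per region in the 5 kb around its centre (y axis) in 3 classes of region, 1 point per library, with a bar at each group's mean. H3K4me2 at active distal regions was 1470 and 1468 bp in DMSO and 1990 and 1797 bp with Corin, while the groups overlapped at active promoters.

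Taken region by region, 1745 of 2617 members (66.7%) had more H3K27ac in both Corin libraries than in both DMSO libraries, and 15 (0.573%) had less. Over all 41587 merged H3K27ac regions the background was 50.4% higher and 0.57% lower, and in active promoters 52.6% were higher. In distal regions without H3K4me2, 54.9% were higher and 3.96% lower. A merged region needs a peak in only 1 list, whereas members have one in both DMSO lists. For H3K4me2, 1673 members (63.9%) were higher and 32 (1.22%) lower, against 45.6% and 3.06% of all 42429 merged H3K4me2 regions. Higher shares were 24.5% in active promoters and 36.4% in distal regions without H3K4me2. Both marks were higher at 1180 members (45.1%), H3K27ac alone at 565, H3K4me2 alone at 493 and neither at 379. No share over all regions is given for this joint call, and whether the marks rose together was not tested. The median difference in H3K27ac between the group means was 719 bp, and the central 90% of members ran from −24.7 to 1817 bp. With lists cut to equal numbers of peaks, 1285 of 2485 members (51.7%) were higher for H3K27ac, against a background of 32.2%, and 1403 (56.5%) for H3K4me2, against 35.3%, while 82 (3.30%) and 68 (2.74%) were lower, against 3.85% and 6.63%. Within the regions alone, which DMSO H3K27ac peaks mostly fill, 644 members (24.6%) were higher for H3K27ac and 98 (3.74%) lower, and 1007 (38.5%) and 44 (1.68%) for H3K4me2. No share over all merged regions is given for this setting, so these counts have no background. Single libraries moved the number of members. The rule found 4974 without DMSO replicate 1 and 4487 without DMSO replicate 2, since it then asks for 1 list. With 1 library left in a group the call is easier to meet and has no background share here, so those counts are not read as a result.

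**Figure D4:**
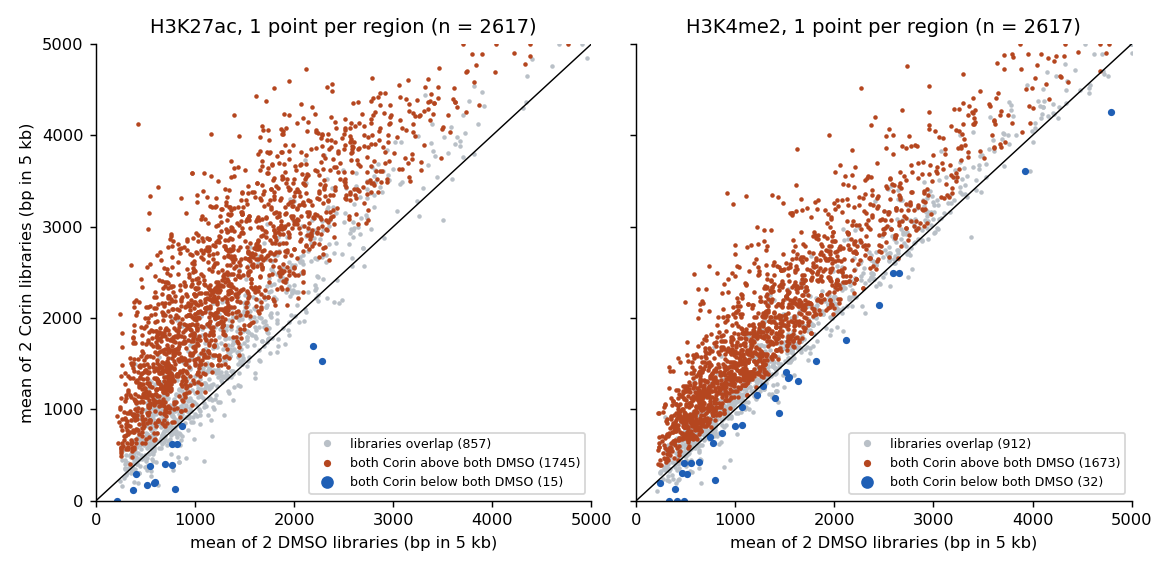
Mean bp under peaks in the 5 kb around each of 2617 active distal regions in Corin (y axis) against DMSO (x axis), for H3K27ac and H3K4me2, coloured by whether the libraries of the groups overlap, with the line of equal values. Most points lie above the line: 1745 regions were higher in both Corin libraries for H3K27ac and 1673 for H3K4me2.

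The 5 largest H3K27ac differences among members whose groups did not overlap lay at regions 386 to 1846 bp wide, both in genes and between them. A 520 bp member in an intron of CCDC88C, which encodes a regulator of Wnt signalling (chr14:91373002-91373521), had 520 and 337 bp of H3K27ac in its 5 kb in DMSO and 4581 and 3675 bp with Corin. A member within the overlapping genes MRPL33, which encodes a mitochondrial ribosomal protein, and RBKS (chr2:27796576-27797488), had 944 and 1372 bp in DMSO and 4865 and 3163 bp with Corin. The next 3 were an intergenic region nearest to HAAO (829 and 1952 bp against 4002 and 4451 bp), one over an exon of DEDD2 (1090 and 2147 bp against 4204 and 4651 bp) and an intergenic one nearest to MAGEF1 (529 and 729 bp against 4311 and 2552 bp). At HAAO, MRPL33 and DEDD2 H3K4me2 overlapped between the groups, and at CCDC88C and MAGEF1 it was higher with Corin.

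H3K4me2 differed most at GNA15, the gene of a G protein subunit of blood cells. A member over a GNA15 exon (chr19:3141267-3141996) had 753 and 1076 bp of H3K4me2 in DMSO and 3617 and 3117 bp with Corin, and its H3K27ac was 723 and 336 bp against 3304 and 2638 bp. A member in an intron of UBAC2 near GPR183, the gene of an oxysterol receptor that guides immune cells (chr13:99312274-99312809), had 984 and 969 bp of H3K4me2 in DMSO and 3745 and 2762 bp with Corin. In the long non-coding gene CCDC26 (chr8:129538580-129540614) H3K4me2 was 2246 and 2286 bp in DMSO and 4650 and 4397 bp with Corin. Both marks were higher with Corin in all 3.

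Among the 5 widest members, 4 had over 4000 bp of the 5 kb under H3K27ac in both DMSO libraries. The widest, 6483 bp over RNASEH2B (chr13:50916295-50922777), had 4402 and 4798 bp of H3K27ac in DMSO and 5000 and 4527 bp with Corin. The next were in an intron of TRERF1, over FAM135B, between genes near RPN1, and over ATG13, and their H3K27ac was 3392 to 5000 bp in DMSO and 4560 to 5000 bp with Corin. Where the groups did not overlap (TRERF1, RPN1 and ATG13) Corin was higher. These regions are wider than the 5 kb window, so several values sit at its ceiling of 5000 bp, and in 10 kb the differences between the group means were 1880 bp at TRERF1, 1767 bp at RPN1 and 3491 bp at ATG13. At ATG13 the values were 3392 and 4205 bp in DMSO and 5000 and 4790 bp with Corin. H3K4me2 at the ATG13 region was low, 382 and 937 bp in DMSO and 376 and 506 bp with Corin.

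Members with the highest DMSO scores, ranked by the lower of their 2 percentiles, were wide in DMSO already. The CITED2 region shown above (chr6:139624829-139628674) had 3846 and 3401 bp of H3K27ac in DMSO and 4244 and 3560 bp with Corin, so the groups overlapped. The next 4, in DENND3, ST3GAL1, SDC2 and PTK2B, all lie on chromosome 8. H3K27ac was higher with Corin in DENND3 (3694 and 3969 bp against 4893 and 4649 bp) and in PTK2B, which encodes a kinase related to FAK (3436 and 3301 bp against 4015 and 4314 bp). The groups overlapped at ST3GAL1 and SDC2. Across all members the ratio was 1.79-fold in the 853 members whose rank was lowest (a lower percentile under 34.6), where DMSO peaks covered a mean of 951 and 959 bp, and 1.42-fold in the 872 ranked highest (above 66.8), with 1859 and 1815 bp. The added length was alike, 750 and 778 bp, so the smaller ratio went with the larger starting length.

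The H3K27ac ratio was much the same by location and lowest beyond 100 kb from a protein-coding TSS. The H3K27ac ratio was 1.54-fold over exons, 1.58-fold in introns and 1.59-fold between genes. It was 1.62-fold at 1 to 5 kb from a protein-coding TSS and at 5 to 20 kb, 1.57-fold at 20 to 100 kb and 1.47-fold beyond 100 kb. Each of these ratios carries an SD of 0.18 to 0.27 on the log2 scale, and the differences among them were not tested. The share of members higher for H3K27ac was 56.0% beyond 100 kb and 66.3 to 69.1% nearer. For H3K4me2 the ratio was 1.20-fold at 1 to 5 kb, a log2 ratio of 0.26 ± 0.07 (SD), and 1.31-fold to 1.32-fold farther out, with log2 ratios of 0.39 to 0.41 and SDs of 0.11 to 0.13.

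Most members had a peak of both marks in both Corin lists. H3K27ac peaks overlapped 2518 of 2617 members (96.2%, 95% Wilson interval 95.4 to 96.9%) in both Corin lists, 89 in 1 list and 10 in neither, beside a background of 94.4% of the 10613 regions with H3K27ac in both DMSO lists. H3K4me2 was found in both Corin lists at 2575 (98.4%), in 1 at 35 and in neither at 7, beside a background of 81.4%, which includes regions without H3K4me2 at the start. Among active promoters, which like the members had H3K4me2 in both DMSO lists, the share was 95.6%. The H3K27ac background includes the members. Among distal regions without H3K4me2, 84.4% had H3K27ac in both Corin lists and 3.26% in neither, against 0.382% of members, and among active promoters 96.9% had it in both. With lists cut to equal numbers of peaks, the members' shares were 84.5% for H3K27ac and 92.6% for H3K4me2. The intervals count regions only and not the spread between libraries.

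The 10 members without H3K27ac in either Corin list were small and weak in DMSO. Their median width was 573 bp, and the median of their lower DMSO score percentile was 24.0, against 949 bp and 53.0 in members with H3K27ac in both Corin lists. H3K4me2 remained in both Corin lists at 9 of the 10. The widest of them, over an exon of ZBTB33 (chrX:120256973-120257839), still had H3K27ac elsewhere in its 5 kb. One in an intron of LINC00867 (chr10:118394296-118395069) had 818 and 774 bp of H3K27ac in its window in DMSO and 252 and 0 bp with Corin, which is lower in both libraries. One in BAZ2B overlapped between the groups.

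Of the gene lists, lineage transcription factors had an active distal region nearby at the largest share of genes. A member lay within 100 kb of a TSS for 15 of 20 genes of this list, for 7 of 10 leukaemia genes and for 7 of 12 genes of cytokine receptors and their feedback, against 20.8% of all 20046 protein-coding genes. The share was 7 of 20 for monocyte and granulocyte genes and 2 of 8 for CoREST and retinoid genes. Lymphoid markers had one at 2 of 6, non-blood markers at 1 of 8 and erythroid markers at 0 of 6. Several members lay nearer to another gene, or inside one: the CD79A region in RPS19, the MS4A1 region over MS4A14 and the APOA1 region in SIK3. In the other lists this held for CEBPB (in PEDS1, 43221 bp from CEBPB), CD33 (nearest to SIGLEC7, 86795 bp from CD33), CD68 (SOX15), CTSG (GZMB), ITGAL (SEPHS2), CSF3R (STK40, 94741 bp from CSF3R), MYC (in PVT1), CISH (over an exon of HEMK1) and IRF8 (in ENSG00000285163). The IRF1 member lay both in IRF1 and in ENSG00000283782, whose TSS was nearer. Distance alone tied a region to a gene here. The lists were chosen with earlier results of these data known.

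CEBPA had 5 members within 100 kb, and H3K27ac was higher with Corin at all 5. Counts this small are read beside the 66.7% of all members that were higher, here and for the genes that follow. The nearest, 7897 bp from its TSS (chr19:33292639-33294637, intergenic), had 1739 and 1767 bp in DMSO and 4311 and 3323 bp with Corin. The one nearest to CEBPB, the gene of a related factor (chr20:50146534-50147609), had 955 and 982 bp in DMSO and 3140 and 2240 bp with Corin. IRF8, which encodes a monocyte-lineage factor, had 3 members, higher at all 3. The nearest (chr16:85927317-85929946) had 2915 and 2721 bp in DMSO and 3916 and 3889 bp with Corin. For GFI1, the gene of a repressor that recruits LSD1, the nearest member (chr1:92459313-92460143) had 2536 and 2483 bp in DMSO and 4545 and 3563 bp with Corin, and H3K27ac was higher at 1 of its 3 members.

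RUNX1 had 3 members, higher at all 3, with a nearest value of 2840 and 2617 bp in DMSO and 3202 and 2883 bp with Corin. IKZF1, the gene of the lymphoid and myeloid regulator Ikaros, had 5 members, higher at 4, and FLI1, an ETS factor gene, had 3, higher at 2. The groups overlapped at the members nearest to MYB (2786 and 2816 bp in DMSO, 4395 and 2295 bp with Corin), LMO2 and GATA2. Of the 15 nearest members in this list, 12 were higher with Corin and none lower, beside 66.7% of all members and 50.4% of all merged regions. Direction depended on the setting for some of them: within the region alone the RUNX1, IRF1 and ETV6 members had differences of −11.5, −84.5 and −3.5 bp, and with equal numbers of peaks the RUNX2 and IRF1 members had −315 and −10.5 bp.

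JMJD1C, which encodes a histone demethylase of the JmjC family that leukaemias with KMT2A fusions are known to rely on, had 12 members within 100 kb. Their summed H3K27ac was 13808 and 12444 bp in DMSO and 30046 and 18720 bp with Corin, and it was higher at 8 of the 12, the same share as among all members (66.7%). The nearest member's difference was 416 bp, and −251.5 bp with equal numbers of peaks. CDK6, a cell cycle kinase gene, had 5 members, higher at 3. The region of PVT1 nearest to MYC (chr8:127809740-127812225) had 2867 and 2251 bp of H3K27ac in DMSO and 3082 and 3678 bp with Corin. At PBX3, the gene of a partner of HOX proteins, 3 members summed to 3476 and 2785 bp in DMSO and to 6809 and 1159 bp with Corin, so the 2 Corin libraries lay on opposite sides of DMSO. MEF2C members showed the groups overlapping at the nearest (1876 and 3129 bp, 3711 and 2395 bp). Over all members near the leukaemia genes, 16 of 28 were higher, beside 66.7% of all members.

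All 7 nearest members of monocyte and granulocyte genes had more H3K27ac in both Corin libraries, as had 66.7% of all members. Over all members near this list, 9 of 10 were higher. CD86, a co-stimulatory ligand and differentiation marker of myeloid cells, had a member in its own intron (chr3:122065632-122066566) with 935 and 710 bp in DMSO and 2029 and 1552 bp with Corin. The one in TYROBP, an adaptor of myeloid receptors (chr19:35905138-35905698), had 2086 and 1678 bp in DMSO and 3878 and 3222 bp with Corin. CTSG, a granule protease gene, had its only member 86739 bp away and nearer to GZMB, with 284 and 244 bp in DMSO and 1513 and 1849 bp with Corin. H3K4me2 was higher too at the CD86, ITGAL, CD33, CD68 and TYROBP members and overlapped between the groups at MPO and CTSG, while 63.9% of all members were higher for H3K4me2.

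Near the cytokine genes as a whole, 9 of 14 members were higher, beside 66.7% of all members. Of these, 3 of the 4 members near FLT3, the receptor mutated in these cells, were higher, and the nearest had 2329 and 2022 bp in DMSO and 2759 and 2826 bp with Corin. At PIM1, a kinase gene induced by STAT5, the single member (chr6:37182652-37183379) had 728 and 1109 bp in DMSO and 2705 and 3023 bp with Corin. CISH, a feedback inhibitor of cytokine signalling, had 2 members, both higher. The groups overlapped at the members nearest to CSF3R, IFNGR1 and SOCS2. Of the CoREST and retinoid genes, RARA and RXRA, the retinoic acid receptor and its partner, had members: the nearest in RARA had 1640 and 2579 bp in DMSO and 3934 and 3110 bp with Corin, and that in RXRA 1103 and 1810 bp against 1901 and 1852 bp. KDM1A, RCOR1, HDAC1 and HDAC2, which encode the complex itself, had none within 100 kb.

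**Figure D5:**
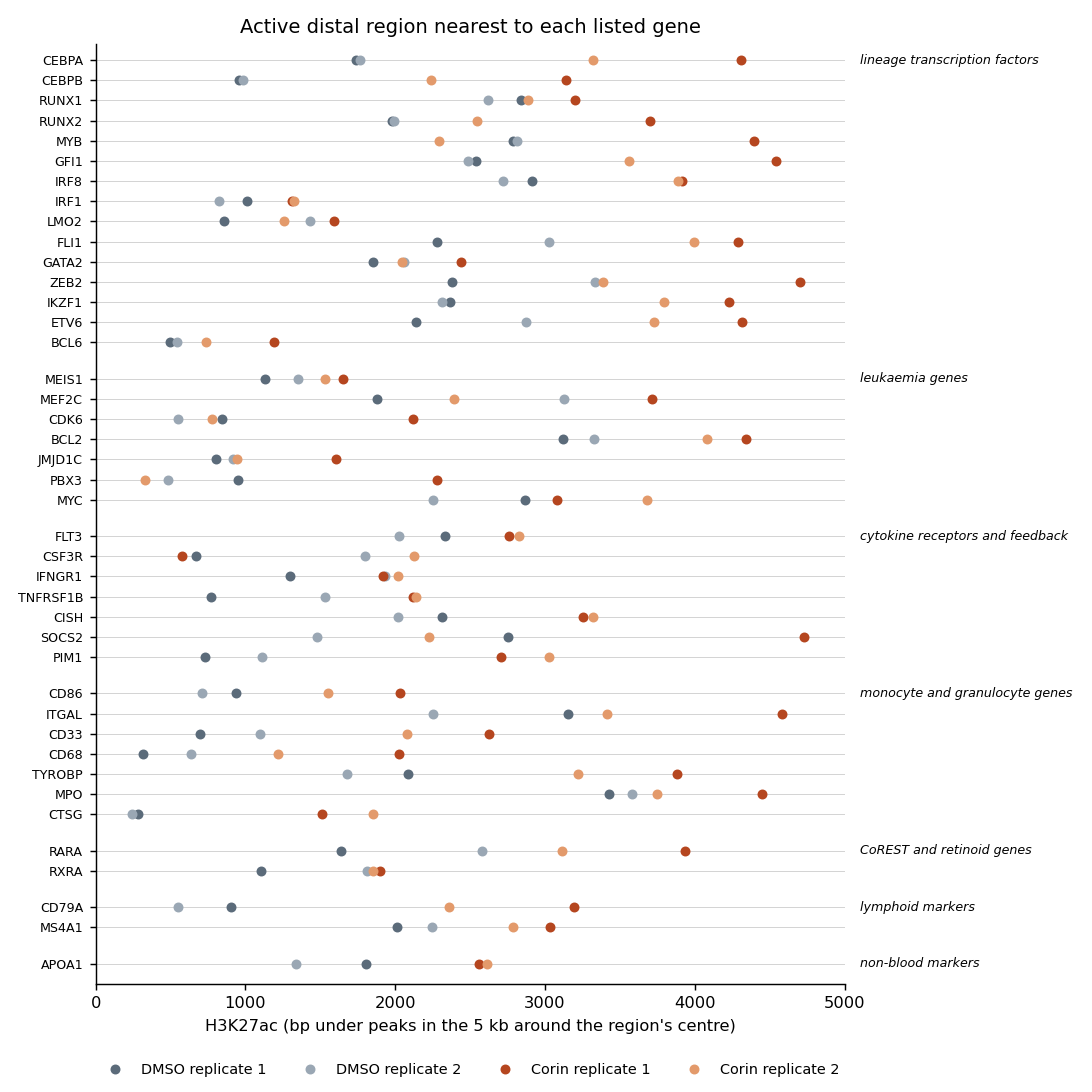
H3K27ac in bp under peaks in the 5 kb around the active distal region nearest to each of 41 listed genes with one within 100 kb (x axis), 1 point per library and 1 row per gene, grouped by list. Of the 20 monocyte and granulocyte genes, 7 had a member. The nearest member of each had both Corin libraries above both DMSO libraries, as had 66.7% of all members. The groups overlapped at MYB, LMO2 and GATA2 among others.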

How the data were processed

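Peak lists of 12 CUT&RUN libraries were used, 1 list per library, so peaks were called in each library separately. Trim Galore, Bowtie2, Picard, MACS2 and hg38 are named in the submitters' processing notes, with no versions or roles, and the calling threshold and control are not given in the sources used here. The deposited score of a peak, a whole number of at least 50 whose definition is not stated, served only for ranks and thresholds inside a list. The deposited positions, the other values used, fit hg38: 0 of 292523 peaks ended past a chromosome end. Coordinates are counted from 1.

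The 2 DMSO H3K27ac lists were merged, with touching peaks kept apart, and 1 bp of overlap counted as a peak at a region. TSS positions (84610) came from basic protein-coding and long non-coding transcripts of GENCODE release 44. Covered length is the bp under peaks in 5 kb around a region's centre. Group means were compared as log2 ratios, with the SD of the difference from the spread within both groups and exact two-sided permutation tests over the 6 arrangements of 2 against 2 libraries. A member was called higher or lower where both Corin libraries lay on 1 side of both DMSO libraries. Motifs were searched as exact letters on both strands of the central 300 bp, and RefSeq promoters on GRCh38 (250 bp before to 50 bp after the start) served as a comparison, all of them and not matched to genes.

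The members and gene lists were chosen with earlier results of these data known. Regions named were, by rule, the 5 widest, the 5 with the highest lower score rank, the 3 widest without H3K27ac in either Corin list, the 5 and 3 with the largest higher H3K27ac and H3K4me2, the 3 largest clusters, and the member nearest to each of the 90 listed genes within 100 kb. Code ran in Python 3.11.15 with numpy 2.4.6 and scipy 1.17.1 and was tested on simulated data. Alternatives were equal numbers of peaks, a stricter score, 50% overlap, other TSS distances and windows, H3K4me3 in DMSO only, each replicate left out and a replicate block.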

Additional observations from a re-analysis of the deposited data

How the results depend on the processing

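The log2 ratio of covered length was positive for H3K27ac and H3K4me2 under each alternative run, with exact p at its smallest possible value. For H3K27ac it was 0.51 with equal numbers of peaks, 0.65 at the stricter score, 0.14 within the region alone and 0.74 in 10 kb, and 0.67 for members off chromosome 8, an alternative added after the data were seen. Leaving out 1 replicate gave 0.49 to 0.81 for H3K27ac and 0.29 to 0.44 for H3K4me2. The number of members was 1242 at the stricter score, 1379 at 50% overlap, and 2617 to 4974 with 1 replicate left out (4487 and 4974 without a DMSO library, since the rule then asks for 1 list).

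The H3K27ac difference from distal regions without H3K4me2 changed sign, to 0.048 with equal numbers of peaks, 0.093 at 50% overlap, 0.078 within the region alone and 0.015 in 10 kb, and ran from −0.049 to 0.047 with 1 replicate left out. The cause was not tested. The differences from active promoters kept their sign under each alternative run, from 0.02 within the region alone to 0.28 for H3K27ac and from 0.24 to 0.35 for H3K4me2.

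Shares with a peak in both Corin lists moved for H3K27ac to 84.5% with equal numbers of peaks and 90.0% at 50% overlap, and for H3K4me2 to 92.6% with equal numbers of peaks. With 1 replicate left out they ran from 80.8 to 98.9% and from 92.6 to 99.6%. Members higher in both Corin libraries numbered 817 and 763 (H3K27ac and H3K4me2) at the stricter score, 975 and 903 at 50% overlap and 644 and 1007 within the region alone. With 1 replicate left out they numbered 1837 to 3703 and 1801 to 3593. Members lower numbered, for H3K27ac, 82 with equal numbers of peaks, 7 at the stricter score and 98 within the region alone, and for H3K4me2 68, 11 and, at 50% overlap, 12. With 1 replicate left out they numbered 54 to 340 and 74 to 405. Apart from equal numbers of peaks, none of these counts has a background share over all merged regions here. With 1 replicate left out the call also asks for fewer libraries. The intronic share was 60.3 to 64.4% with 1 replicate left out.

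Same-numbered DMSO and Corin libraries deviated together from their group means (correlations over regions of 0.35 for H3K27ac, 0.29 for H3K4me2 and 0.22 for H3K4me3), but there are 2 pairs per mark, and what a shared number means is not labelled. With the replicate block the log2 ratios were 0.65 for H3K27ac and 0.36 for H3K4me2, and the differences from promoters were 0.19 and 0.31 (exact p = 0.5, the smallest that 2 pairs allow). The difference from distal regions without H3K4me2 was −0.00084 (exact p = 1). Of 512 values of 64 named members under the alternatives, 39 had the other sign than the value reported. Of these, 31 belong to members whose groups overlap, such as MYB, PBX3 and SOCS2, which have no called direction, and 8 to members called higher. Beside those given for RUNX1, RUNX2, IRF1, ETV6 and JMJD1C (−11.5, −315, −10.5, −84.5, −3.5 and −251.5 bp), the member in RBM19 just inside the distance limit went to −51 bp with equal numbers of peaks and −102 bp within the region alone. Unknown depth limits each of these counts.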

Other observations

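Chromosome 8 held more of the highest-scoring active distal regions than its share of regions. It carried 204 of 2617 members (7.80%), or 85.4 members per 100 active promoters against 58.1 over all chromosomes, and 29 of the 100 members with the highest lower score percentile of the 2 DMSO H3K27ac lists. The median of that percentile was 68.0 on chromosome 8 and 52.0 over all members. Active promoters showed the same: 239 of 4508 lay on chromosome 8, with 25 of the 100 highest and a median of 76.0 against 55.3. Distal regions without H3K4me2 had 141 of 1440 on it and 17 of their 100 highest, but medians of 35.5 on chromosome 8 and 33.3 over all. Chromosome 10 had 82.0 members per 100 active promoters and 5 of the 100 highest, and chromosome 19 had 32.3 members per 100 active promoters. Covered lengths do not use the score, and copy number was not measured here. The H3K27ac ratio of Corin to DMSO was 1.46-fold on chromosome 8 and 1.59-fold elsewhere, with SDs of 0.24 and 0.22 on the log2 scale. For H3K4me2 the order was the other way, 1.37-fold on chromosome 8 and 1.28-fold elsewhere, with 74.5% and 63.0% of members higher.

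The largest groups of members within 12.5 kb of each other held 9 members each. One spanned 38.3 kb between MRPL1 and CNOT6L (chr4:77822542-77860791), with 14167 and 11589 bp under H3K27ac in DMSO and 22383 and 17555 bp with Corin. The other spanned 44.4 kb over MACROH2A1, which encodes a macroH2A histone (chr5:135394814-135439217), with 19549 and 15509 bp in DMSO and 27737 and 20318 bp with Corin. The third spanned 38.3 kb and 7 members in RREB1 (chr6:7128940-7167220), with 20551 and 18211 bp in DMSO and 28706 and 23391 bp with Corin. In the sums of MRPL1, MACROH2A1 and RREB1 both Corin libraries lay above both DMSO libraries, while member by member H3K27ac was higher at 4 of 9, 4 of 9 and 6 of 7, beside 66.7% of all members. Members with a PU.1 match and those without had H3K27ac log2 ratios of 0.68 and 0.65, and those with and without a C/EBP match 0.64 and 0.66, differences below the SD of each ratio (0.19 to 0.26).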
